A study of Rattus norvegicus with 10 samples.

Results

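Polyamine synthesis and its control were examined through 7 genes of rat skeletal muscle, Odc1, Amd1, Srm, Sms, Sat1, Smox and Oaz1, out of 14217 genes that the array could name. A probe set, the group of short oligonucleotides that reads 1 transcript, was taken when the platform annotation paired it with 1 of these genes alone. This gave 8 probe sets among the 31099 on the Affymetrix Rat Genome 230 2.0 array, with a pair for Sms and 1 for each other gene. A further probe set carried both Smox and RGD1564480 and was kept apart.

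Gastrocnemius muscle was taken from male Wistar rats, whose age was 6 weeks when the feeding regimens began. Control rats received the full intake recorded beforehand, and 4 other groups received calorie restriction (CR) of 5, 10, 20 or 30% of it, for 1 week or for 1 month. All rats were fasted for 16 h before collection. Each of the 10 groups was 1 array that carried a pool from 5 rats, so no group had a replicate and the spread between rats cannot be read from these data. The number of arrays limits the precision, and every p-value below rests on the scatter of the 10 arrays around a fitted model. The 1-month rats were also older than the 1-week rats at collection, so duration and age cannot be told apart.

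The signals were brought to a common scale before any comparison, since the trimmed mean was 99.64 on the 1-week arrays and 86.44 on the 1-month arrays as deposited, a difference of -0.21 on the log2 scale. Genes that mark fast muscle were bright on every array, as 8 of the 9 listed had a probe set and all 8 passed the filter on dim signals. The 1-week control and 1-week 5% CR arrays each carry a second description line that states the opposite feeding. The fits were therefore repeated with these arrays exchanged, for probe sets that passed the filter. Member estimates that moved by over 1.5 times there are given in both ways. The actin 3' to 5' ratio, a sign of RNA integrity, was highest on the 1-week control (1.70), with 1.24 to 1.56 under 1 week of CR and 1.37 to 1.60 at 1 month. In a whole muscle, fewer cells of a type and less RNA per cell cannot be told apart.

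Polyamines are small positively charged molecules that bind nucleic acids and are needed for growth and translation. Ornithine decarboxylase, the product of Odc1, makes putrescine from ornithine, and S-adenosylmethionine decarboxylase, the product of Amd1, makes the aminopropyl donor with which spermidine synthase (Srm) and spermine synthase (Sms) build spermidine and spermine. Spermidine/spermine acetyltransferase (Sat1) marks polyamines for export or breakdown, and spermine oxidase (Smox) returns spermine to spermidine. Antizyme (Oaz1) binds ornithine decarboxylase and delivers it to the proteasome, and antizyme inhibitor (Azin1) takes antizyme away from it.

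None of the 7 member probe sets that passed the filter on dim signals reached an adjusted p below 0.05 in limma in any of 5 contrasts, which were restricted against control, the slope with the level of CR, 1 month against 1 week, and the differences between durations of the first pair. The share of all 15521 tested probe sets that did so was 2.0% for restricted against control, 2.0% for the trend with the level of CR and 10.0% for 1 month against 1 week. At an unadjusted p below 0.05, Sat1 alone passed for restricted against control (background 14.2%). Odc1 and Sat1 passed in that way for the trend (background 14.3%), and Odc1 alone did for duration (background 24.4%). Of the members that passed the filter, the estimates furthest from 0 in restricted muscle were those of Sat1 (above 0) and Odc1 (below 0), and the gene of the wider pathway that fell with CR was Azin1.

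**Figure D1:**
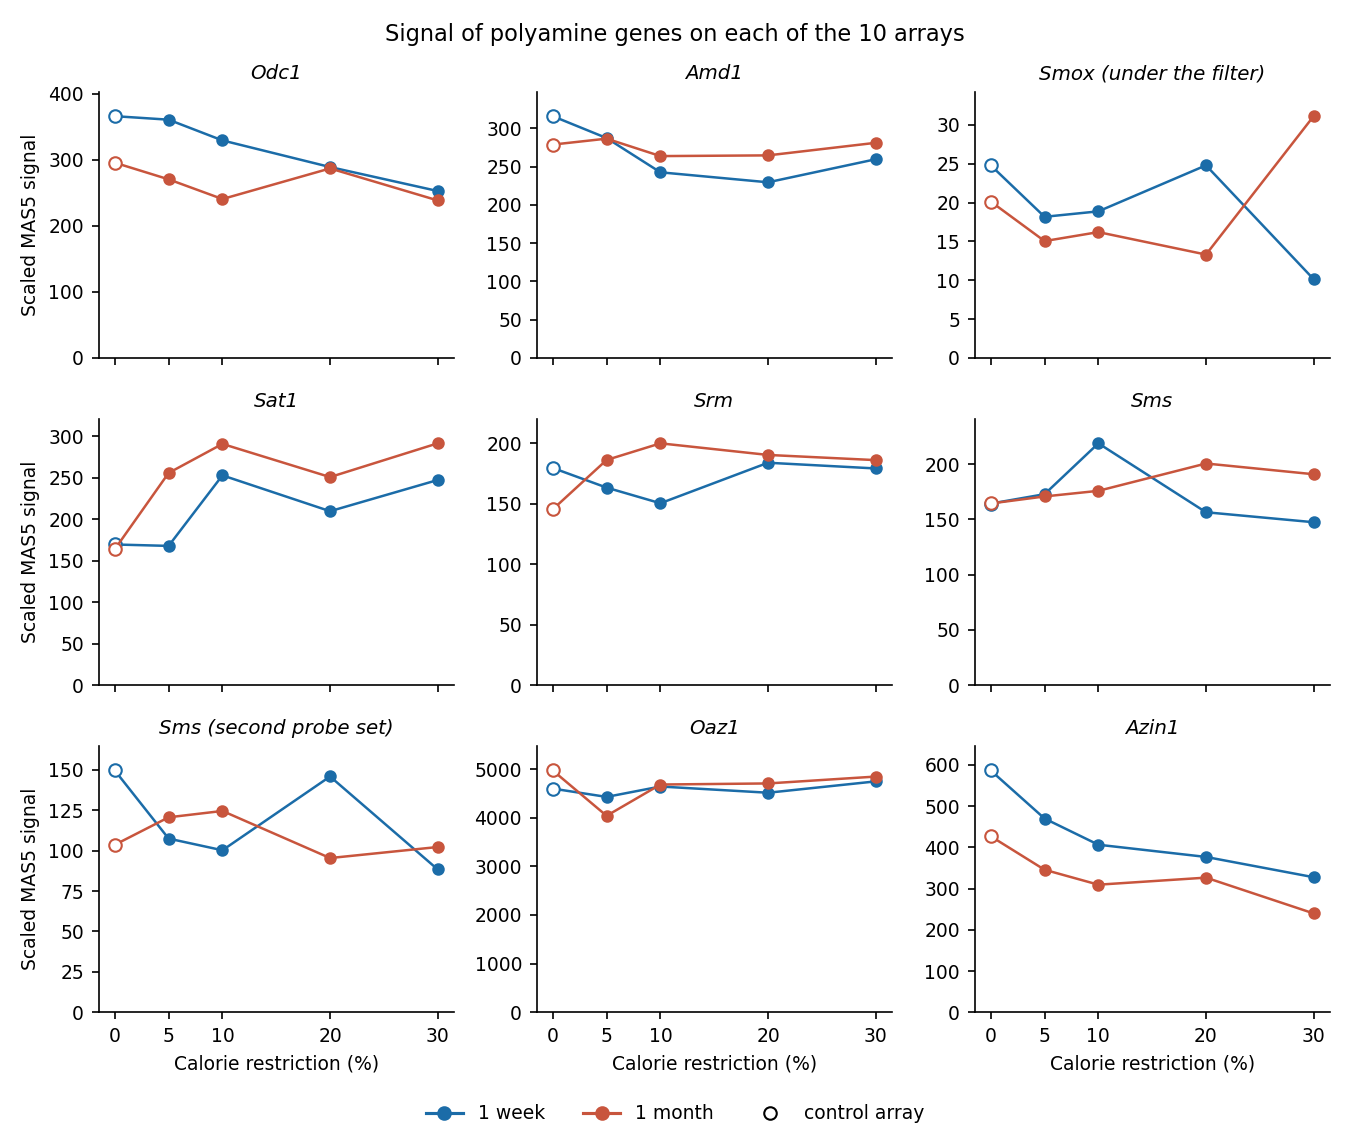
Scaled MAS5 signal (y axis, from 0) by CR level in percent (x axis) for the 8 member probe sets and for Azin1, with 1 point per array, open circles for the control arrays, blue for 1 week and red for 1 month. Odc1 ran from 366 down to 253 at 1 week, Azin1 from 586 to 327, and the 1-month control of Sat1 (164) lay below all restricted arrays of its duration. Heights cannot be compared between panels, since each probe set has its own response.

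Odc1, the gene of the first enzyme of the pathway, read 366 on the 1-week control array, 361 at 5%, 329.6 at 10%, 289 at 20% and 253 at 30% CR. At 1 month it read 296 on the control array, 271 at 5%, 241 at 10%, 287 at 20% and 239 at 30% CR. The 1-week signals were lower at each higher level of CR, while at 1 month the 20% array lay next to the control. As log2 ratios to the control these were -0.021, -0.15, -0.34 and -0.53 at 1 week, and -0.13, -0.30, -0.043 and -0.31 at 1 month. All 8 ratios were below 0, a pattern that 8.40% of all tested probe sets had, and the 4 ratios of a duration share 1 control array. Restricted arrays averaged -0.23 ± 0.12 (SE, 95% interval -0.48 to 0.021, limma adjusted p = 0.402) against the controls. The slope was -0.12 ± 0.036 log2 per 10 percentage points of CR (limma adjusted p = 0.0981), with -0.19 at 1 week alone (adjusted p = 0.0890) and -0.063 at 1 month alone (adjusted p = 0.770). The difference between these slopes was 0.12 ± 0.066 with an interval of -0.017 to 0.27 (limma adjusted p = 0.832). With the 1-week control and 5% arrays exchanged, the Odc1 slope was -0.12 (adjusted p = 0.137).

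Odc1 was also lower at 1 month than at 1 week at all 5 levels, by -0.31 on the log2 scale in the controls, -0.42 at 5%, -0.45 at 10%, -0.011 at 20% and -0.084 at 30% CR. A lower signal at all 5 levels was found for 11.4% of tested probe sets. The controls and the milder levels thus carried most of the difference, and at 20% CR the arrays of both durations were nearly equal. The estimate was -0.25 ± 0.078 (interval -0.42 to -0.089, limma adjusted p = 0.0516). It passed the threshold without the 1-month 20% array (-0.31, adjusted p = 0.0252), without the 1-week 30% array (-0.30, adjusted p = 0.0460) and after quantile normalization (-0.27, adjusted p = 0.0460). On the signals as deposited, whose scale differs between durations, it was -0.46 (adjusted p = 0.000717). There the median over all tested probe sets was -0.21, and 5263 of 15521 passed. The Odc1 estimate moved away from the threshold after median centring (-0.17, adjusted p = 0.253), without the variance trend (adjusted p = 0.105) and with the level of CR as a block (adjusted p = 0.0803), and leaving out each array gave adjusted p-values up to 0.123.

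Azin1, which protects ornithine decarboxylase from antizyme, was measured beside Odc1 as a gene of the wider pathway. It read 586 on the 1-week control array, 469.8 at 5%, 406 at 10%, 377 at 20% and 327 at 30% CR. At 1 month it read 427 on the control array, 346 at 5%, 309 at 10%, 326 at 20% and 239.7 at 30% CR. Both controls lay above every restricted array of their duration, as for 8.40% of tested probe sets. The 30% arrays were the lowest of each duration. Its slope fell by 0.24 ± 0.036 log2 per 10 percentage points (interval -0.31 to -0.16, limma adjusted p = 0.00443). A second Azin1 probe set gave -0.29 ± 0.040 (adjusted p = 0.00299), and another did not pass the filter. The slope held with the 1-week control and 5% arrays exchanged (-0.22, adjusted p = 0.0240) and was -0.18 in the 8 restricted arrays alone (adjusted p = 0.0895). At 1 month alone it was -0.22 (adjusted p = 0.217) and at 1 week alone -0.25 (adjusted p = 0.0462), and the slopes differed by 0.027 ± 0.073 (limma adjusted p = 0.976). Azin1 was also lower at 1 month, by -0.39 ± 0.077 (limma adjusted p = 0.00521), and at each of the 5 levels, as for 11.4% of tested probe sets. It gave -0.30 after median centring (adjusted p = 0.0613). Restricted against control it averaged -0.54 ± 0.13 (limma adjusted p = 0.0510). This value crossed the threshold without the 1-week 5% array (adjusted p = 0.0209), without the 1-month 5% array (adjusted p = 0.0436) and without the 1-month 30% array (adjusted p = 0.0477). It also did so with a filter at the 70th percentile (adjusted p = 0.0449) and with 32 added to the signal (-0.50, adjusted p = 0.0445). The same value was -0.34 (adjusted p = 0.546) with the 1-week control and 5% arrays exchanged, had an adjusted p of 0.160 without the variance trend, and reached 0.300 without the 1-week control.

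Oaz1, the antizyme itself, had a narrow range. Its 1-week signals were 4598 in the control and 4427 to 4746 under CR, and its 1-month signals 4970.2 in the control and 4039 to 4845 under CR. The lowest array was 1-month 5% CR, with a log2 ratio of -0.30, and the other 7 ratios lay between -0.086 and 0.046. Restricted arrays differed from controls by -0.066 ± 0.075 (interval -0.23 to 0.095, limma adjusted p = 0.759), and the estimate was 0.017 after quantile normalization, or -0.031 when the 1-week control and 5% arrays were exchanged. The slope was 0.021 ± 0.028 per 10 percentage points (adjusted p = 0.793). Between durations the difference was 0.016 ± 0.061 (adjusted p = 0.904), and it turned to -0.19 (adjusted p = 0.0278) on the signals as deposited, whose scale differs between durations.

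Amd1, whose enzyme supplies the aminopropyl groups, read 316 on the 1-week control array, 287 at 5%, 243 at 10%, 229.5 at 20% and 259.6 at 30% CR. At 1 month the control read 279 and the restricted arrays 264 to 287. All 4 restricted arrays of 1 week were below their control, with log2 ratios of -0.14, -0.38, -0.46 and -0.28, while the 1-month ratios stayed between -0.080 and 0.040. All 4 ratios below 0 at 1 week were found for 22.1% of tested probe sets. Restricted against control was -0.17 ± 0.098 over both durations (interval -0.38 to 0.038, limma adjusted p = 0.458). The difference of this value between durations was 0.29 ± 0.19 (interval -0.11 to 0.69, limma adjusted p = 0.796), so a difference between 1 week and 1 month was not shown. With the 1-week control and 5% arrays exchanged, these values were -0.085 (adjusted p = 0.812) and 0.12 (adjusted p = 0.976). The slope was -0.053 ± 0.037 (adjusted p = 0.563). Between durations Amd1 differed by 0.051 ± 0.080 (adjusted p = 0.746), or by -0.15 (adjusted p = 0.150) on the signals as deposited.

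Srm, the spermidine synthase gene, read 179.7 on the 1-week control array, 163 at 5%, 150.4 at 10%, 184 at 20% and 179.2 at 30% CR. At 1 month it read 145 on the control array, 186 at 5%, 200.03 at 10%, 190.4 at 20% and 186 at 30% CR. The 1-month control was the lowest of all 10 arrays, and the 4 restricted arrays above it lay close together. The 1-month log2 ratios were 0.36, 0.46, 0.39 and 0.36, against -0.14, -0.26, 0.034 and -0.0032 at 1 week. Sat1 and Srm were the members with all 4 ratios of 1 month at 0.25 or more, which 6.53% of tested probe sets had. These 4 ratios rest on 1 control array. Restricted against control was 0.15 ± 0.11 over both durations (interval -0.093 to 0.39, limma adjusted p = 0.603), 0.39 at 1 month alone (adjusted p = 0.197) and -0.090 at 1 week alone (adjusted p = 0.920). Of the member probe sets, Srm alone had an unadjusted p below 0.05 for the difference between durations in this contrast, 0.48 ± 0.20 with an interval of 0.060 to 0.90. Its adjusted p was 0.628, none of 15521 probe sets passed the threshold in limma, and 7.22% had an unadjusted p below 0.05. With the 1-week control and 5% arrays exchanged, Srm gave 0.24 over both durations (unadjusted p = 0.0413, adjusted p = 0.494) and a difference between durations of 0.31 (unadjusted p = 0.146). The slope of Srm was 0.057 ± 0.042 (adjusted p = 0.589), and 1 month against 1 week was 0.080 ± 0.091 (adjusted p = 0.637), which was -0.13 on the signals as deposited.

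Sms, the spermine synthase gene, was read by 2 probe sets that did not move together. The brighter read 164 in the 1-week control with 148 to 219 under CR, the 10% array highest, and 165 in the 1-month control with 171 to 201 under CR. The second read 149.6 in the 1-week control with 88.4 to 146 under CR, and 104 in the 1-month control with 95.4 to 125 under CR. At 1 week all 4 ratios of the second probe set were below 0, from -0.76 at 30% to -0.036 at 20% CR, while those of the brighter ran from -0.16 to 0.41. The former pattern was found for 22.1% of tested probe sets, and the 4 ratios share 1 control array. For restricted against control, the brighter gave 0.11 ± 0.13 (limma adjusted p = 0.750) and the second -0.19 ± 0.17 (limma adjusted p = 0.686), and an exchange of the 1-week control and 5% arrays made these 0.069 and 0.11. The slopes were -0.00026 ± 0.048 (adjusted p = 0.998, or -0.0034 after the exchange) and -0.098 ± 0.062 (adjusted p = 0.523). The brighter probe set had a slope at 1 month that exceeded that at 1 week by 0.17 ± 0.088 (interval -0.019 to 0.36, limma adjusted p = 0.821). No probe set passed for this difference of slopes in limma, where 6.06% had an unadjusted p below 0.05. Between durations the estimates were 0.080 ± 0.10 (adjusted p = 0.689), or -0.13 on the signals as deposited, for the brighter and -0.090 ± 0.13 (adjusted p = 0.731), or -0.30 on the signals as deposited (adjusted p = 0.101), for the second.

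Sat1, the acetyltransferase that starts polyamine breakdown, read 169.6 on the 1-week control array, 168 at 5%, 253 at 10%, 209.8 at 20% and 247 at 30% CR. At 1 month it read 164 on the control array, 256 at 5%, 291 at 10%, 251 at 20% and 292 at 30% CR. Both controls and the 1-week 5% array formed the low end, with no other array below 209.8. The log2 ratios were -0.015, 0.58, 0.31 and 0.54 at 1 week, and 0.64, 0.83, 0.61 and 0.83 at 1 month. The 1-month ratios lay at the 95.8 to 98.3 percentiles of all tested probe sets. Restricted against control gave 0.54 ± 0.14, a 1.46-fold difference (interval 0.24 to 0.84, limma adjusted p = 0.0607), and 97.0% of tested probe sets had a lower estimate. Without the 1-week 5% array it was 0.61 ± 0.11 and passed (limma adjusted p = 0.00601). At 1 month alone it was 0.73 ± 0.13 (limma adjusted p = 0.0330), and the same estimate had an adjusted p of 0.121 when the 1-week restricted arrays stayed in the fit. Both rest on 1 control array. At 1 week alone it was 0.35 (adjusted p = 0.676), and the difference between durations was 0.38 ± 0.27 (interval -0.20 to 0.96, limma adjusted p = 0.829). With the 1-week control and 5% arrays exchanged it was 0.55 (adjusted p = 0.367).

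The Sat1 slope was 0.18 ± 0.057 log2 per 10 percentage points (interval 0.055 to 0.30, limma adjusted p = 0.147), and 0.088 in the 8 restricted arrays alone (adjusted p = 0.638). The 10% and 30% arrays of a duration lay next to each other. At 1 month Sat1 was higher than at 1 week by 0.61 at 5%, 0.20 at 10%, 0.26 at 20% and 0.24 at 30% CR, and differed by -0.049 in the controls. The fitted difference between durations was 0.25 ± 0.12 (interval -0.012 to 0.51, limma adjusted p = 0.230), or 0.046 on the signals as deposited (adjusted p = 0.794).

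Markers of other cells also differed between arrays. The summed level of the 6 macrophage markers, all measured and none at 0, was 371 in the control and 428 to 469 under CR at 1 week, and 319.6 in the control and 351 to 588 under CR at 1 month. Of these, Cd163, a scavenger receptor, passed for restricted against control (1.25, limma adjusted p = 0.0123). It read 13.3 in the 1-week control, below the filter level of 19.2, and 39.3 to 53.4 under 1 week of CR. At 1 month it read 27.4 in the control and 39.5 to 49.5 under CR. That 1-week control is 1 of the 2 arrays with a conflicting description line. With these arrays exchanged, 1 of all 15521 probe sets passed in this contrast. The summed level of the 7 slow fibre markers was 2817 in the control and 5444 to 13261 under CR at 1 week, and 9373 in the control and 7023 to 10668 under CR at 1 month. The 8 fast muscle markers measured of 9 listed summed to 74287 in the control and 78200 to 81371 under CR at 1 week. At 1 month they summed to 88667 in the control and 57361 to 73770 under CR. None of these 8 passed in any of the 5 contrasts, and the 1-month ratios of the members share that control array. The 5 adipocyte markers summed to 802 in the control and 904 to 1161 under CR at 1 week, and to 779 and 945 to 1010.0 at 1 month. Fabp4 gave most of these sums (726 in the 1-week control and 695 in the 1-month control), and Lep and Plin1 did not pass the filter. Kdr, a receptor of vessel cells, fell by 0.36 per 10 percentage points (limma adjusted p = 0.00153) and was lower at 1 month (-0.46, limma adjusted p = 0.00920), while Vwf was above its control in all 8 ratios (0.34 to 0.91) and Pecam1 ran from -0.36 to 0.50, neither passing in these contrasts. The 3 endothelial markers measured of 4 listed had a median of 0.072 for restricted against control and summed to 342 in the control and 243 to 403 under CR at 1 week, and to 336 and 237 to 279 at 1 month. For 1 month against 1 week, where Odc1 and Azin1 were lower, both tested red blood cell markers were lower, Hbb, a globin gene, by -0.79 (limma adjusted p = 2.31e-05) and Alas2, of haem synthesis, by -1.05 (adjusted p = 0.00787). The 3 red blood cell markers measured of 4 summed to 1972 in the control and 1622 to 2005 under CR at 1 week, and to 1149 and 966 to 1135 at 1 month. Of 4 fibroblast markers, the collagen gene Col1a1 (-0.72, adjusted p = 0.00370) and Lum (-0.50, adjusted p = 0.02002) were also lower at 1 month in limma. The others did not pass, and differed between durations by -0.064 to 0.107 (Dcn) and -0.555 to 0.096 (Pdgfra) over the levels. For the trend, 1 fibroblast, 1 adipocyte and 1 macrophage marker passed as higher. Of all 15521 tested probe sets, 146 did so. The 4 fibroblast markers summed to 6906 in the control and 7221 to 8032 under CR at 1 week, and to 5227 and 5287 to 7136 at 1 month. The part of these cells in the Sat1, Odc1 and Azin1 values was not tested.

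**Figure D2:**
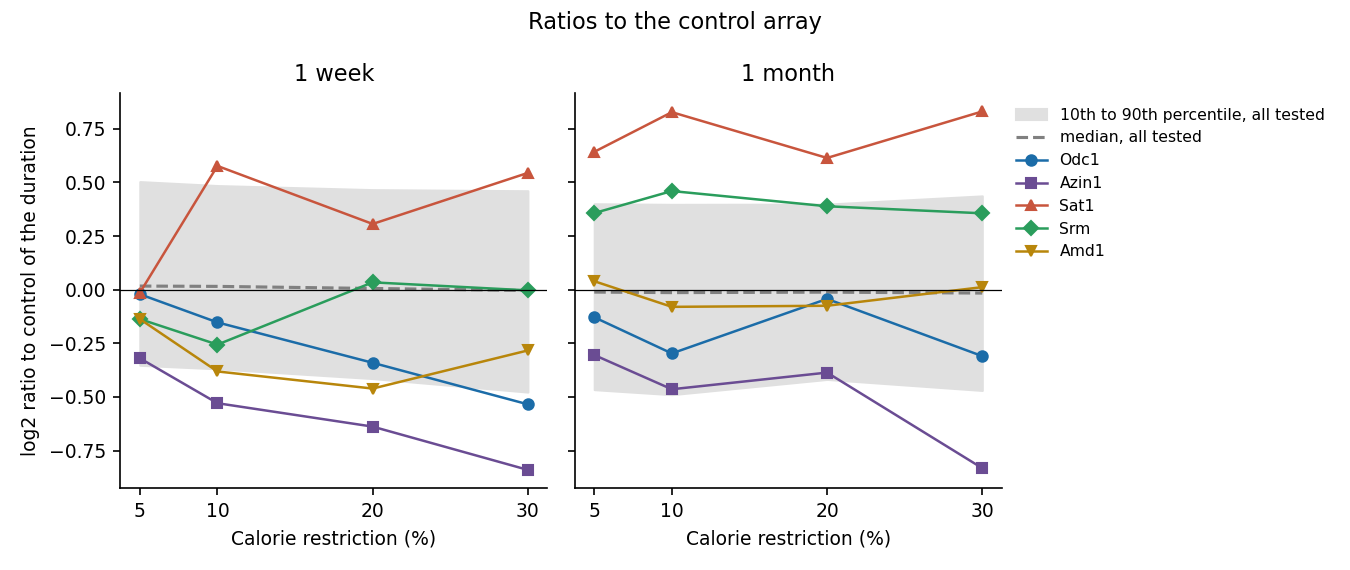
Log2 ratio of each restricted array to its control (y axis) by CR level in percent (x axis), at 1 week (left) and 1 month (right), for 5 genes, with 1 point per restricted array. The grey band holds the 10th to 90th percentile of all 15521 tested probe sets and the dashed line their median. Sat1 lay above the band at 10 and 30% CR of 1 week and at all 4 levels of 1 month, Srm above it at 10% CR of 1 month, Azin1 below it at 3 levels of 1 week and at 30% CR of 1 month, Amd1 below it at 10 and 20% CR of 1 week, and Odc1 below it at 30% CR of 1 week.

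Smox, the spermine oxidase gene, was dim. Its probe set had a mean log2 signal of 4.20, just under the 4.26 required, and its estimates come from a fit without the filter. It read 24.8, 18.2, 18.9, 24.8 and 10.1 at 1 week and 20.1, 15.0, 16.2, 13.3 and 31.1 at 1 month, from control to 30% CR. The 30% arrays held both the lowest and the highest value. Restricted against control was -0.35 ± 0.39 (interval -1.19 to 0.48, limma adjusted p = 0.839 without the filter). The probe set shared with RGD1564480 was brighter, at 58.1 in the control and 62.8 to 74.7 under CR at 1 week, and at 79.2 in the control and 72.2 to 79.2 under CR at 1 month. Which of its genes gave that signal cannot be read from these data.

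**Figure D3:**
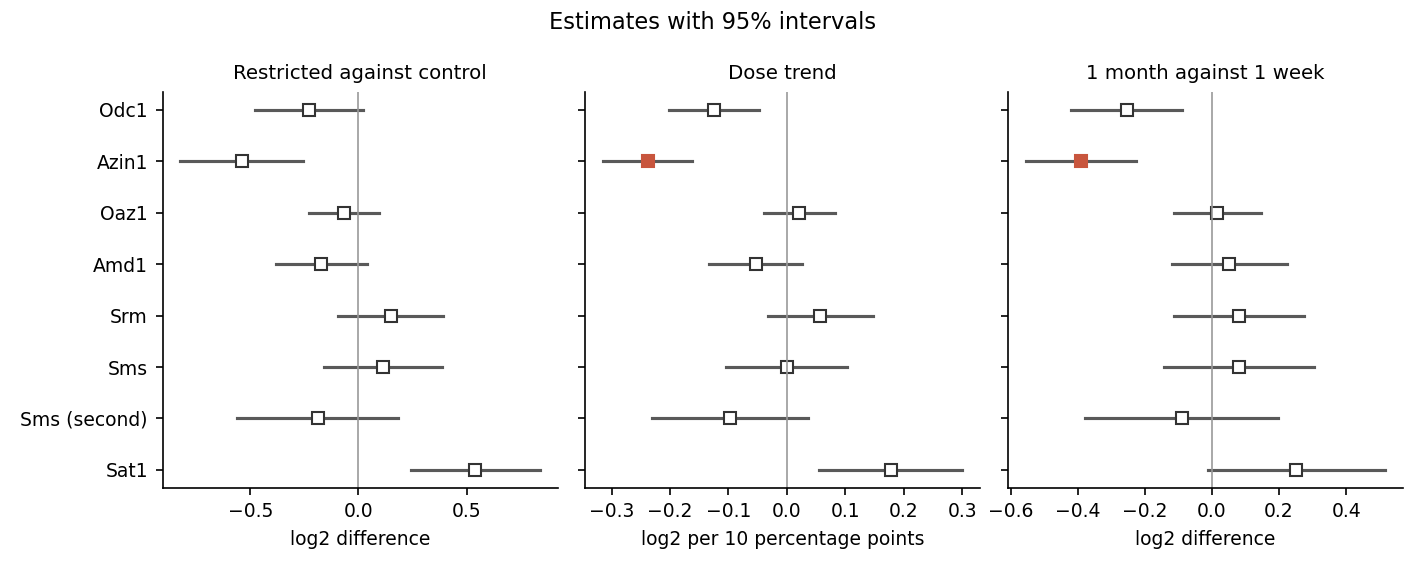
Estimates (squares) with 95% intervals (lines) from limma over the 10 arrays, in log2 units, for restricted against control, for the trend per 10 percentage points of CR, and for 1 month against 1 week, at the common scale. Filled red squares passed an adjusted p of 0.05, which Azin1 did for the trend (-0.24) and for duration (-0.39), while no member did.

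The other genes of polyamine metabolism were read from a list of 56, of which 52 had a probe set and 39 passed the filter. For restricted against control, none of the 39 passed in limma, with a median estimate of 0.015 against -0.0082 over all tested probe sets. For the trend, 1 was lower (Azin1, 2.56% of the 39 against 1.06% of all tested probe sets) and none higher, with a median of 0.024 against -0.0033. For 1 month against 1 week, 1 was lower (Azin1, against 5.55% of all tested probe sets) and 3 were higher, namely Oat, Max and Mxi1 (7.69% of the 39 against 4.45%), with a median of 0.0027 against -0.0065. At the scale as deposited, the median over all tested probe sets was -0.21 for duration.

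Oat encodes ornithine aminotransferase, which links ornithine to glutamate metabolism. Its signal was 739.8 in the control and 638 to 767 under CR at 1 week, and 736 in the control and 908 to 931 under CR at 1 month. The controls differed by -0.0065 on the log2 scale, and the restricted arrays of 1 month lay above all others. The difference between durations was 0.31 ± 0.068 (limma adjusted p = 0.00964), or 0.11 (adjusted p = 0.240) on the signals as deposited. Max is the partner with which Myc binds DNA, and Mxi1 is a competitor of Myc for it. Max was higher at 1 month by 0.37 ± 0.066 (limma adjusted p = 0.00288), or 0.16 (adjusted p = 0.0689) on the signals as deposited, but a second Max probe set gave 0.061 ± 0.098 (adjusted p = 0.755). Mxi1 was higher by 0.40 ± 0.065 (limma adjusted p = 0.00145), or 0.20 (adjusted p = 0.0303) on the signals as deposited, and its second probe set by 0.37 ± 0.11 (adjusted p = 0.0465).

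Within the subgroups of the list, the genes with the estimate furthest from 0 for restricted against control did not pass. They were Azin1, Paox (acetylpolyamine oxidase, 0.23), Asl (argininosuccinate lyase, -0.12), Nnmt (nicotinamide methyltransferase, 0.82), Apip (methionine salvage, -0.18), Eif5a2 (a factor that carries hypusine, 0.19), Slc7a1 (cationic amino acid transport, -0.50), Myc (-0.22) and Psmb3 (a proteasome subunit, 0.076). Second probe sets had the opposite sign for Asl (0.37), Slc7a1 (0.12) and Eif5a2 (-0.35), none passing. With the 1-week control and 5% arrays exchanged, Myc turned to 0.28, Paox was 0.062, Apip -0.042, Slc7a1 -0.16, Nnmt 0.43 and Eif5a2 0.38. Nnmt, which uses the methyl donor that Amd1 also consumes, read 8.10 in the 1-month control and 24.4 to 27.0 under 1 month of CR, while its 1-week arrays ran from 17.2 at 30% CR to 51.0 at 5% CR with 32.9 on the control. Its estimate was 1.67 against the 1 control array of 1 month (limma adjusted p = 0.0511) and -0.021 at 1 week alone (adjusted p = 0.995). The 13 proteasome genes measured, which encode the particle that degrades ornithine decarboxylase, all missed the threshold in these 3 contrasts, with medians of 0.021, 0.034 and -0.042.

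The 250 bases before the start that RefSeq (GRCr8) gave for each member were read, and all 7 had an entry. The windows of Odc1, Amd1, Smox and Sms lay wholly or partly inside the annotated gene, and those of Sat1, Srm and Oaz1 ended at its edge. They were searched on both strands for 6 motifs, with overlapping matches counted apart. CACGTG, the core bound by Myc and Max, was present for Srm and Oaz1 and in 5.79% of 27457 promoters of this length. TATAAA was present for Amd1 and Oaz1 (13.1% of promoters). CCAAT was present for Srm, at 3 places, and Oaz1 (34.3%). GGGCGG, the core bound by Sp1, was present for 6 members, all but Smox (32.4%). GTAAACA (3.25%) and TGACGTCA (1.70%) were present for none. A match is a description of these letters and not of binding. The windows of Srm and Oaz1, which hold CACGTG, and of Sat1, the member with the estimate furthest from 0, are shown 5′ to 3′ on the strand of the gene with matches to the 6 motifs in capitals.
Srm, chr5:164308752-164309001, plus strand: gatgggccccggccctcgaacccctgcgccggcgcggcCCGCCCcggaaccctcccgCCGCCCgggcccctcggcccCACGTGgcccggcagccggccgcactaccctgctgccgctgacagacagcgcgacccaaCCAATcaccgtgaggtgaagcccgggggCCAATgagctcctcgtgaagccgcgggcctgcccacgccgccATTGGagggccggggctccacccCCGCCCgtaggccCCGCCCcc
Oaz1, chr7:9536991-9537240, minus strand: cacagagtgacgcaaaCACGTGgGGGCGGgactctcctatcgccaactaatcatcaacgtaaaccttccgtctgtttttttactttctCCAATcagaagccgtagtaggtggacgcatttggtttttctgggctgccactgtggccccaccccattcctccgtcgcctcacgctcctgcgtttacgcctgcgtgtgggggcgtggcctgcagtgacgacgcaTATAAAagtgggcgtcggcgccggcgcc
Sat1, chrX:44007839-44008088, plus strand: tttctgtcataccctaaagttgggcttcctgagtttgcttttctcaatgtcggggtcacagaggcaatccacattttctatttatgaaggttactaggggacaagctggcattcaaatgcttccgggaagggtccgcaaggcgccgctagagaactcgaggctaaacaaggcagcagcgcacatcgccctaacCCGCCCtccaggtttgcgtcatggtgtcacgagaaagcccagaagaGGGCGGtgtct

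Of the members, Sat1 and Smox varied enough over the arrays of a duration (SD of at least 0.25 log2) for a search for similar genes among 3887 probe sets. Smox had not passed the filter that those probe sets passed. Its signals were dim, from 10.1 to 31.1, with both ends on the 30% CR arrays. The patterns most like Sat1, with each duration centred on its mean, were those of Gpcpd1 (Pearson's r = 0.97 over 10 arrays), which encodes a glycerophosphocholine phosphodiesterase, of a probe set annotated as Syncrip-ps2 (0.97) and of Scn7a (0.96), a sodium channel gene. For Smox they were Tcaf1 (0.92), Ypel2 (0.92) and Hpcal1 (0.89). These values were picked as the highest of the search, and the arrays share 1 control per duration, so they stand as a description.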

How the data were processed

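RNA of gastrocnemius muscle was hybridized, per the labels and methods, as 1 pool per group to 10 arrays. The deposited table holds linear MAS5 signal intensity, 1 value per probe set and array, which the authors had scaled within each duration. Detection and change calls were not used here. Each array was scaled to a trimmed mean of 100 (2nd to 98th percentile), floored at 0.1 and converted to log2. Tests covered the 15521 probe sets whose mean log2 signal reached the 50th percentile, after 57 control probe sets were left out. Names came from the platform annotation, where 20832 probe sets carried 1 gene, 436 several and 9831 none.

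Models were fitted over all 10 arrays in limma 3.58.1 (R 4.3.3), using lmFit and eBayes (trend = TRUE). Benjamini-Hochberg adjustment over all tested probe sets was applied, with a threshold of 0.05. Restricted against control compared 8 arrays with 2. The slope on the level of CR and this contrast both had duration as a factor. Duration was fitted with the level as a covariate, and both differences between durations as interactions. There were 7 residual degrees of freedom, or 6 with an interaction. The spread is that of the groups around the model, not of replicates. Scripts were tested on simulated data.

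The members and the gene lists were chosen with earlier results of these data known. For a gene with several probe sets, the brightest led. Pathway genes were named when they passed in any contrast or lay furthest from 0 in their subgroup for restricted against control. Similar genes were the 3 with the highest Pearson correlation to a member with an SD of at least 0.25. The settings tried instead were other normalizations (quantile, median centring, the signals as deposited), other filters (none, 70th percentile), a constant of 32 added before the log, eBayes with no trend, 2 arrays exchanged, ranks of the level, the restricted arrays alone, 1 duration alone, the level as a block, and leaving out each array in turn. Restricted against control within 1 duration was added after seeing the data. The change calls that the study used need probe-level data and were not computed here.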

Additional observations from a re-analysis of the deposited data

How the results depend on the processing

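No paired analysis was possible because each group held 1 array, all numbered 1, which leaves no replicate number to use as a block. The level of CR as a block, tried for duration, let no member pass and gave Odc1 -0.25 ± 0.082 (adjusted p = 0.0803) and Sat1 0.25 ± 0.091 (adjusted p = 0.119), with 1365 probe sets passing. Of 368 values for members and named pathway genes under other settings, 339 kept their direction and their side of the threshold, and leaving out 1 array kept both in 387 of 404. Smox was not in these counts. For the differences between durations they held only Odc1, Amd1 and the brighter Sms probe set for the slope. For restricted against control by duration they held only Sat1, Srm and Amd1. Without a control array, restricted against control by duration could not be fitted. The cause of the changes below was not tested.

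For restricted against control, quantile normalization turned Oaz1 to 0.017, and exchanging the 1-week control and 5% arrays gave values above 0 for Myc (0.28) and the second Sms probe set (0.11). At 1 week alone, Asl was 0.049, Nnmt -0.021 and Srm -0.090, and at 1 month alone Myc was 0.21 and the second Sms probe set 0.087, and 1 member probe set (Sat1) passed, against 1 control array. Leaving out each array, the ranges were -0.30 to 0.049 for Asl, -0.021 to 1.67 for Nnmt, -0.65 to 0.21 for Myc, -0.090 to 0.39 for Srm and -0.46 to 0.087 for the second Sms probe set, with 0 to 1 member probe sets passing. Each of these sign changes came from leaving out a control. Sat1 ranged from 0.35 without the 1-month control (adjusted p = 0.540) to 0.73 without the 1-week control (adjusted p = 0.121).

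The Sms slope, near 0, was 0.0056 after quantile normalization, 0.0124 after median centring, 0.000273 with 32 added to the signal, 0.0104 on ranks of the level, 0.0852 at 1 month alone, and -0.0229 to 0.0550 leaving out each array. For duration, the signals as deposited gave -0.15 for Amd1, -0.13 for Srm, -0.13 for Sms and -0.19 for Oaz1. There 2 member probe sets (Odc1 and Oaz1) passed, among 5263 of all 15521. Quantile normalization, the 70th percentile filter and 32 added to the signal each let 1 member probe set (Odc1) pass. Over all probe sets, 1575 of 15521, 1481 of 9313 and 1587 of 15521 passed under these settings, in that order. Leaving out each array let 0 to 1 member probe sets pass, with 1115 to 1710 over all probe sets. The ranges were -0.17 to 0.016 for the second Sms probe set and -0.023 to 0.065 for Oaz1, below 0 without the 1-month control.

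Over all probe sets, 311 passed for restricted against control, 77 without the variance trend, 1 with the arrays exchanged, 34 at 1 week alone, 129 at 1 month alone, and 27 (without the 1-week control) to 455 (without the 1-week 5% array) leaving out each array. For the trend 310 passed, 196 after median centring (58.2% higher, against 47.1%), 73 without the variance trend, 161 with the arrays exchanged, 38 in the restricted arrays, 109 at 1 week alone, 6 at 1 month alone, and 86 (without the 1-week 30% array) to 368 leaving out each array. For duration 1553 passed (44.5% higher), 5263 on the signals as deposited (3.33% higher), 1365 after median centring (68.6% higher) and 1115 to 1710 leaving out each array. Restricted against control by duration gave 2 after quantile normalization, 2 with the 70th percentile filter and 0 to 26 leaving out each array, and the trend by duration 0 to 2.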
